A study of Mus musculus with 24 samples.

Results

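The genes of fatty acid synthesis, storage and oxidation were followed as 41 named members among the 55421 genes of the count table. They were chosen by gene symbol for their place in the pathway, and each symbol matched 1 gene. The rule holds no measured value, but the choice was made with earlier results of these data known. Shares of members beside those of all genes are therefore a description. By role they were 12 genes of synthesis, 7 of activation, uptake and binding, 7 of storage and lipolysis, 12 of mitochondrial oxidation and 3 regulators of fuel use. RNA was sequenced from bone marrow-derived macrophages (BMDMs) grown with 10 ng/ml GM-CSF and 2 ng/ml TGF-β to make them alveolar-like. There were 4 groups of 6 libraries: wildtype (C57/B6/J) or AhR-deficient (AhR KO/KO, B6.129-Ahr tm1Bra/J), each unstimulated or given 97 EU/ml LPS on day 6 of culture for 24 h. The AhR-deficient mice lack the receptor in every tissue from the germline on, so the cells also developed without it, and their strain name records a 129 origin of the targeted allele. The treatment protocol ends with 5 µM of the Ca2+ ionophore A23187 for 10 min, and the labels do not restrict this step to a group. Mice of both sexes were used in the study, and the labels tie neither sex nor age to a library.

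The aryl hydrocarbon receptor (AhR) is a transcription factor that binds DNA as a pair with ARNT when a ligand is present. Cells make fatty acids from citrate through acetyl-CoA and malonyl-CoA, then lengthen them with elongases (Elovl genes) and insert double bonds with desaturases (Scd and Fads genes). Fads2, Elovl5 and Fads1 act in turn to make arachidonic acid from dietary linoleic acid, the substrate for prostaglandins and leukotrienes. Fatty acids are tied to coenzyme A by acyl-CoA synthetases, stored as triglyceride in lipid droplets, or carried into mitochondria on carnitine and burnt by β-oxidation. In macrophages these routes change with activation, and alveolar macrophages are known for handling the lipids of surfactant.

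The libraries held between 45106052 and 76992663 counts, and values are CPM, counts per 1000000 counts of a library scaled by TMM. A gene rose or fell where edgeR's quasi-likelihood test gave a Benjamini-Hochberg adjusted p of at most 0.05 over the 16593 genes tested. Of the 41 members, 39 passed the filter on low counts and were tested. The targeted gene was counted in every library. Ahr had 9.6 to 43.1 CPM (median 30.7) in unstimulated wildtype and 4.74 to 10.96 CPM (median 7.40) in unstimulated AhR-deficient BMDMs. After LPS it had 6.58 to 27.9 CPM (median 18.03) in wildtype and 21.5 to 63.8 CPM (median 39.2) in the libraries labelled AhR-deficient, so the order was turned round. The counts cover the whole gene and do not check the deleted part. Ahrr, a target gene of AhR chosen here with its values known, had at least 13.3 CPM in each wildtype library and at most 1.05 CPM in each AhR-deficient library, so it separated the libraries as labelled. None of the members lay on chromosome 12, which carries Ahr.

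Libraries of a group differed in their slope of log2 CPM on log2 gene length, from 0.14 in AhR-deficient library 19 and 0.17 in wildtype library 33, both unstimulated, to 0.74. The library numbers form 3 runs of 8 (17 to 24, 25 to 32 and 33 to 40), with mean slopes of 0.46, 0.68 and 0.34 and 2 libraries of each group in each run. The labels do not call these runs batches. Members with long transcripts, such as Fasn, Acaca, Lpl and Hadha, were lowest in libraries of low slope.

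Macrophage markers summed to at least 12070 CPM in every library and alveolar macrophage markers to at least 3764 CPM, and 3 of 10 of the latter rose with AhR deficiency in each state and none fell. Of the adipocyte markers, Lep had no count in any library and Adipoq had counts in 1 library, at 0.089 CPM, and the 8 summed to at most 4.52 CPM. T cell markers summed to at most 5.51 CPM, B cell markers to at most 15.4 CPM and stromal cell markers to at most 33.98 CPM. Of the 8 macrophage markers, 1 fell with AhR deficiency without stimulation and 1 rose after LPS. Of all genes tested, 1.83% rose and 4.29% fell without stimulation, and 4.33% rose and 8.3% fell after LPS. Markers of other myeloid cells moved with genotype too. The 8 dendritic and Langerhans cell markers summed to between 88.0 and 220.5 CPM in unstimulated wildtype against 11.5 to 36.3 CPM in AhR-deficient BMDMs, and to between 594 and 2455 against 101 to 896 CPM after LPS. The 8 neutrophil markers summed to between 1502 and 11960 CPM in unstimulated wildtype against 226 to 746 CPM, and to between 664 and 8049 against 138 to 975 CPM after LPS. The 8 mast cell and basophil markers summed to between 7.67 and 24.9 against 2.02 to 4.91 CPM without LPS, and to between 19.1 and 56.6 against 5.28 to 13.8 CPM after it. Of the tested markers of these 3 lists in that order, 4 of 7, 6 of 7 and 5 of 8 fell without stimulation and 7 of 7, 4 of 7 and 6 of 8 after LPS, while 1 dendritic cell marker rose without stimulation, and Cd207 had no count in LPS-stimulated AhR-deficient BMDMs. In bulk RNA, fewer cells of a type and less RNA per cell cannot be told apart, and the part of these cells in the genotype differences below was not tested.

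Per kb of merged exon, the scale on which levels of different genes were compared, Plin2 was the highest member in unstimulated wildtype, with a mean level of 140.6 CPM per kb. It coats lipid droplets and held a mean of 140.6 to 166.5 CPM per kb over the 4 groups. Scd2, a stearoyl-CoA desaturase, followed in unstimulated wildtype with a mean of 109.6 CPM per kb and led in unstimulated AhR-deficient BMDMs with 175.1, where Plin2 and Lpl had 166.5 and 163.9. After LPS, Plin2 with 143.0 CPM per kb and Dgat2 with 105.7 led in wildtype, while Lpl with 239.0 and Plin2 with 141.8 led in AhR-deficient BMDMs. Single libraries of Plin2 kept to 117.0 to 175.9 CPM per kb, while those of Lpl ran from 14.7 to 122 in unstimulated wildtype and from 61.0 to 363.9 in LPS-stimulated AhR-deficient BMDMs. In AhR-deficient BMDMs the ranges of these neighbours overlapped, and in unstimulated wildtype those of Plin2 and Scd2 did at their edges (127.8 and 131.7) but not those of Plin2 and Lpl. In LPS-stimulated wildtype, Dgat2 at 79.7 to 168.5 and Lpl at 25.4 to 160.5 CPM per kb both overlapped Plin2 at 126.9 to 172.4. At the low end were Acacb, Ppara and Pdk4. Acacb, the mitochondrial acetyl-CoA carboxylase, and Ppara, the fatty acid-sensing receptor of liver oxidation, did not pass the filter, and Acacb had 15 to 35 counts over a whole group. Ppara had no count in unstimulated wildtype, where counting error alone allows up to 3 over the group, and 6 to 25 counts in the others. Pdk4 passed the filter with 6 to 63 counts over a group.

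**Figure D1:**
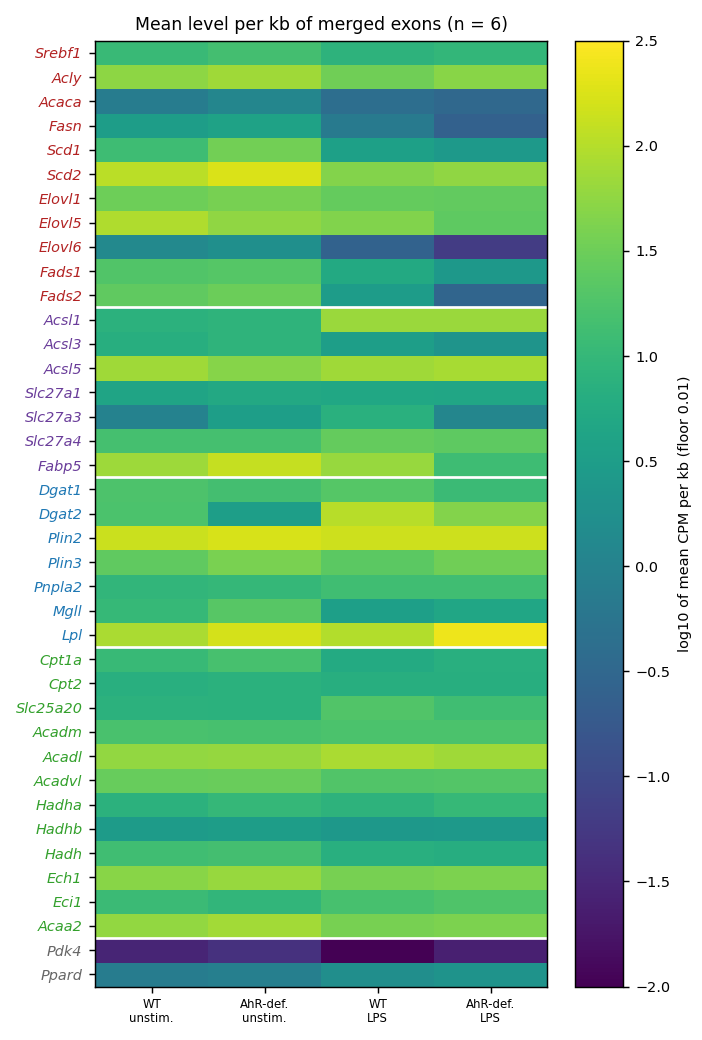
Mean CPM per kb of merged exons (log10 colour scale, floor 0.01) of the 39 tested members in the 4 groups of 6 libraries, WT for wildtype and AhR-def. for AhR-deficient, with gene names coloured by role and white lines between roles. Fads2 and Elovl6 are darkest in LPS-stimulated AhR-deficient BMDMs, at 0.29 and 0.063 CPM per kb, while most genes of oxidation keep 1 shade across the row.

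Without stimulation, 6 of the 39 tested members changed with genotype (15.4%), against 6.12% of all genes tested. After LPS 9 changed (23.1%), against 12.6% of all genes. Of the first 6, 3 rose (Slc27a3, Plin3 and Acaa2) and 3 fell (Dgat2, Elovl5 and Acsl5), where 1.83% of all genes rose and 4.29% fell. Of the 9 after LPS, 1 rose (Plin3) and 8 fell (Fads2, Slc27a3, Fabp5, Elovl6, Dgat2, Fads1, Elovl5 and Acsl3), where 4.33% of all genes rose and 8.3% fell. With libraries scaled by their totals alone, which shifted the median of all genes by −0.08 and −0.22 on the log2 scale, 1 rose and 3 fell without stimulation and 0 rose and 11 fell after LPS. The median log2 fold change over the tested members was 0.27 without stimulation and −0.01 after LPS, where all genes had −0.01 and −0.05. The libraries of the genotypes did not overlap for 5 members without stimulation and 6 after LPS, against 5.15% and 7.11% of all genes. In 5 members the genotype difference itself changed with LPS by the interaction term (12.8% against 4.3% of all genes, 1.95% positive and 2.34% negative), and in all 5 the term was negative: Slc27a3, Fads2, Fabp5, Fads1 and Acsl3.

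**Figure D2:**
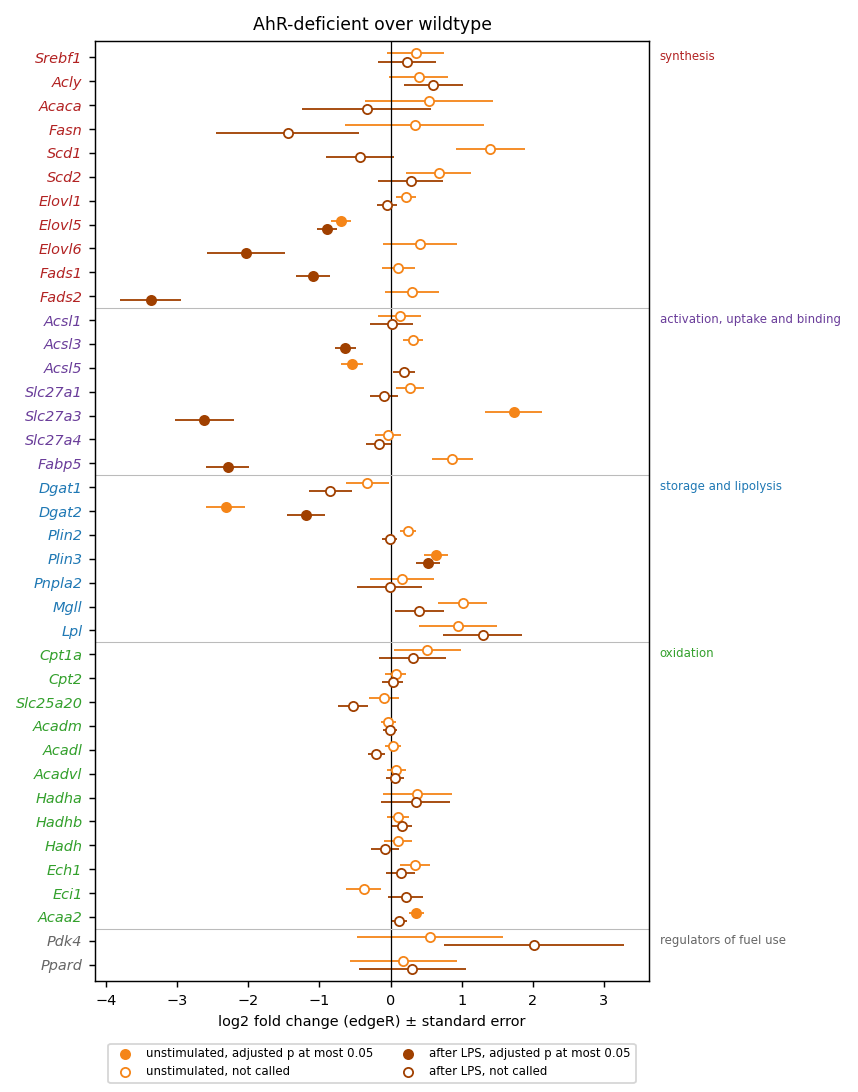
Log2 fold change of AhR-deficient over wildtype for the 39 tested members, ordered by role, with bars for the standard error (n = 6 libraries per group), without stimulation in orange and after LPS in brown, and filled points for an adjusted p of at most 0.05. The filled points after LPS lie among the desaturases and elongases, the uptake genes, Dgat2 and Plin3, from −3.37 to 0.52, and none lies among the genes of oxidation.

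In fatty acid synthesis, 4 of 11 tested members fell in AhR-deficient BMDMs after LPS and none rose, where 8.3% of all genes fell and 4.33% rose. Without stimulation 1 fell, where 4.29% of all genes did. With the length slope as a covariate, 4 fell and 2 rose after LPS. The 4 were the desaturases Fads2 and Fads1 and the elongases Elovl6 and Elovl5, while Scd1, Scd2 and Elovl1, also desaturases or elongases, were not called. Fads2, the delta-6 desaturase (ENSMUSG00000024665), had 40.4 to 105.7 CPM (median 91.4) in unstimulated wildtype and 50.9 to 141.4 CPM (median 108.0) in unstimulated AhR-deficient BMDMs. The LPS-stimulated libraries had 4.18 to 20.8 CPM (median 7.14) in wildtype and 0.36 to 1.85 CPM (median 0.82) in AhR-deficient BMDMs. The unstimulated groups thus overlapped, while all 6 LPS-stimulated AhR-deficient libraries lay below every wildtype library. The log2 fold change was 0.30 without stimulation (standard error 0.38, adjusted p = 1.0) and −3.37 after LPS (standard error 0.43, adjusted p = 6.09e-06), which is 10.4-fold lower. The interaction was −3.67 (standard error 0.57, adjusted p = 0.000388). As differences of mean log2(CPM + 0.5), the 3 runs gave −3.50 to −1.81 for LPS-stimulated BMDMs.

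Fads1, the delta-5 desaturase that acts after Fads2 and lies in the same stretch of chromosome 19 (10182888 to 10196877 of mm10, with Fads2 at 10062765 to 10101746), had a pattern of the same kind and smaller size. It had 51.4 to 106.3 CPM (median 99.2) in unstimulated wildtype and 55.9 to 117.0 CPM (median 107.9) in unstimulated AhR-deficient BMDMs, and these groups overlapped. With LPS the values were 17.5 to 37.7 CPM (median 23.6) in wildtype and 6.87 to 15.8 CPM (median 12.6) in AhR-deficient BMDMs, with no overlap. The log2 fold change after LPS was −1.09 (standard error 0.23, adjusted p = 0.0021). The interaction of −1.20 (standard error 0.33, adjusted p = 0.035) lost its call in 16 of 33 alternatives, with adjusted p between 0.0011 and 0.069, and in 14 of them a single library was left out (17, 18, 20, 21, 23, 27, 28, 29, 30, 32, 34, 35, 36 or 39).

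Elovl6, the elongase that lengthens palmitate (chromosome 3, 129532355 to 129638495, overlapping Gm43072 on the same strand), was near the detection limit in LPS-stimulated AhR-deficient BMDMs, and 1 of their libraries had no count. It had 1.98 to 13.9 CPM (median 7.76) in unstimulated wildtype and 2.72 to 15.1 CPM (median 13.0) in unstimulated AhR-deficient BMDMs. In the LPS-stimulated groups there were 0.60 to 2.28 CPM (median 2.06) in wildtype and 0 to 0.53 CPM (median 0.49) in AhR-deficient BMDMs, and the highest of the latter lay just under the lowest of the former. The log2 fold change after LPS was −2.03 (standard error 0.55, adjusted p = 0.015), and the call was lost with limma-voom or with only the 12 libraries compared (adjusted p up to 0.080). The interaction of −2.45 (standard error 0.75) had an adjusted p of 0.070 and passed the threshold in 7 of 33 alternatives. Among these were DESeq2, run as a factor, the length slope as a covariate and library 19, 37 or 39 left out.

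Elovl5, which elongates polyunsaturated chains (chromosome 9, 77917364 to 77984519), was the synthesis gene that fell in both states. It had 240.1 to 394.7 CPM (median 323) in unstimulated wildtype and 172.0 to 230.5 CPM (median 193.0) in unstimulated AhR-deficient BMDMs. LPS-stimulated BMDMs had 131.7 to 198.2 CPM (median 142.9) in wildtype and 70.4 to 97.0 CPM (median 84.1) in AhR-deficient BMDMs. The genotypes overlapped in neither state, with log2 fold changes of −0.70 (standard error 0.14, adjusted p = 0.0018) and −0.89 (standard error 0.14, adjusted p = 7.35e-05), called in all 34 alternatives each.

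Scd1, the stearoyl-CoA desaturase that makes oleate, had 16.9 to 87.3 CPM (median 72.4) in unstimulated wildtype and 54.3 to 244.3 CPM (median 197.3) in unstimulated AhR-deficient BMDMs. The groups overlapped, and the log2 fold change (1.41, standard error 0.48, with adjusted p = 0.10) missed the threshold. It passed with DESeq2, with run as a factor, with the length slope as a covariate and without library 19, with adjusted p between 0.0054 and 0.21 over all alternatives. After LPS Scd1 had 3.46 to 28.9 CPM (median 17.4) in wildtype and 2.99 to 20.4 CPM (median 13.1) in AhR-deficient BMDMs. Its near copy Scd2 ranged from 354 to 1396 CPM without LPS and from 82.4 to 625.4 CPM after it over both genotypes, and reads from stretches that the copies share may be missing from both. Elovl1, an elongase of saturated very long chains, had log2 fold changes of 0.22 without stimulation and −0.05 after LPS (standard error 0.14 each) and was not called. The first steps of the pathway gave no call for genotype. These were Acly, which splits citrate to acetyl-CoA, Acaca, the cytosolic acetyl-CoA carboxylase, Fasn, the fatty acid synthase, and Srebf1, the transcription factor over lipogenesis, with log2 fold changes from 0.34 to 0.54 without stimulation and from −1.45 (Fasn, standard error 1.01) to 0.60 (Acly, standard error 0.42) after LPS. The data can say little of Fasn: its unstimulated wildtype libraries ran from 1.18 to 78.4 CPM. Its log2 fold change after LPS was −0.84 without library 29, −0.93 without library 30 and −0.06 once the length slope entered the model, and the runs gave −1.89 to 0.82 as differences of mean log2(CPM + 0.5), with no common sign.

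Promoter windows of 250 bases before to 50 after the transcription start, from RefSeq on GRCm38.p6, were at hand for 33 of the 41 members (40 windows, as some genes have several starts) and for 32851 starts in all. The 8 members without a window, which were not searched, were Fads1, Scd1, Scd2, Fabp5, Dgat1, Dgat2, Lpl and Acaa2. The windows of Fads2 and Elovl6 are shown because these were the synthesis genes with the smallest interaction p among those with a window, that of Eci1, an enoyl-CoA isomerase, because it was the same among the genes of oxidation, and that of Slc27a3 because its genotype difference changed sign with LPS, a choice made after its values were seen. Capitals mark matches on either strand to GCGTG (the core bound by AhR with ARNT) or CCAAT (the NF-Y box), and no matches overlap.
Fads2 (chr19:10101454-10101753, minus strand): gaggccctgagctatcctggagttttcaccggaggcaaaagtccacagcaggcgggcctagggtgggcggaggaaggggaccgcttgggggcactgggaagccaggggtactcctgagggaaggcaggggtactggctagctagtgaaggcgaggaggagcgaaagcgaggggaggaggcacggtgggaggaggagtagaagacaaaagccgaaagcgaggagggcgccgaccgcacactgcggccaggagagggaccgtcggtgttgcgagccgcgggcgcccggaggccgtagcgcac
Elovl6 (chr3:129532136-129532435, plus strand): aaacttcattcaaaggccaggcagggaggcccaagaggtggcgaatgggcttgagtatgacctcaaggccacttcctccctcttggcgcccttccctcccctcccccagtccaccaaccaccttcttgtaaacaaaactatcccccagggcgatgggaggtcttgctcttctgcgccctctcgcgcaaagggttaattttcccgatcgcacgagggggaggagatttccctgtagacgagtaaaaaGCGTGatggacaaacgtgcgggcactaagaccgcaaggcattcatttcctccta
Eci1 (chr17:24426433-24426732, plus strand): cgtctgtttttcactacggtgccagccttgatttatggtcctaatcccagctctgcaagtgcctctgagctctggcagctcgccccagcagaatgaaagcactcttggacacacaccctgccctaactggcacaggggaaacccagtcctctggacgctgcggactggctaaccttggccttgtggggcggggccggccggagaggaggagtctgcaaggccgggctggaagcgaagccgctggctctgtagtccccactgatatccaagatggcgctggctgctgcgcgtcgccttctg
Slc27a3 (chr3:90389889-90390188, minus strand): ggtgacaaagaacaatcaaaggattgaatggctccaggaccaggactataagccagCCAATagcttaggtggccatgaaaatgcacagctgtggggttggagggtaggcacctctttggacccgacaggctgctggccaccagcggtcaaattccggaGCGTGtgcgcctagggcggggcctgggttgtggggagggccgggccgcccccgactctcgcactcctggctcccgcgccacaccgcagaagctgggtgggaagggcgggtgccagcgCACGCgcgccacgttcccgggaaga
The windows of Fads2 and Eci1 held neither motif. That of Elovl6 held GCGTG from 4 bases before the start, and that of Slc27a3 held CCAAT at −194 and GCGTG at −92 and, on the other strand, at 26. GCGTG was found in 21 of the 40 member windows (52.5%, in 20 genes) and in 32.4% of all windows, and CCAAT in 19 (47.5%, in 17 genes) and in 37.4%. By role, GCGTG was in windows of 5 of 9 synthesis genes and 5 of 11 oxidation genes, and CCAAT in 6 of 9 and 2 of 11. TCACNCCAC, a sterol regulatory element, was in 1 member window, of Acsl1, and in 1.24% of all, and a pair of AGGTCA copies in the same direction with 1 or 4 bases between was in no member window and in 0.0396% and 0.0152% of all. These are matches of letters and not binding sites.

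Among the 7 genes of activation, uptake and binding, genotype moved Slc27a3, Fabp5, Acsl3 and Acsl5, and the first 3 had a called interaction. Called were 2 of 7 without stimulation (28.6%, against 6.12% of all genes) and 3 of 7 after LPS (42.9%, against 12.6%). For the interaction it was 3 of 7 (42.9%, against 4.3%). Slc27a3 (ENSMUSG00000027932, chromosome 3, 90385239 to 90389938), a member of the fatty acid transport family with acyl-CoA synthetase activity, had 1.0 to 3.43 CPM (median 2.91) in unstimulated wildtype and 6.58 to 12.8 CPM (median 7.91) in unstimulated AhR-deficient BMDMs. After LPS it had 6.68 to 29.3 CPM (median 17.6) in wildtype and 1.60 to 6.98 CPM (median 2.22) in AhR-deficient BMDMs. AhR-deficient BMDMs were thus higher without overlap before LPS and lower after it, where 1 library, number 31, reached into the wildtype range. The log2 fold changes were 1.74 (standard error 0.40, adjusted p = 0.0070) and −2.62 (standard error 0.41, adjusted p = 9.33e-05), with an interaction of −4.35 (standard error 0.58, adjusted p = 7.55e-05). The 3 runs gave 1.01 to 2.17 for unstimulated BMDMs and −3.46 to −1.02 for LPS-stimulated BMDMs, as differences of mean log2(CPM + 0.5). Among the LPS-stimulated libraries, the highest Slc27a3 of each genotype was in library 38 and library 31, which also held that group's highest sum of dendritic and Langerhans cell markers, 2455 and 896 CPM, and the part of these cells was not tested.

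Fabp5, a fatty acid-binding protein of macrophages (chromosome 3, 10012548 to 10016607), had 204.6 to 357 CPM (median 227) in unstimulated wildtype and 340.0 to 704 CPM (median 410.4) in unstimulated AhR-deficient BMDMs. The LPS-stimulated libraries had 85.5 to 422 CPM (median 228) in wildtype and 30.7 to 56.1 CPM (median 47.7) in AhR-deficient BMDMs. Only library 33 of unstimulated wildtype reached into the range of unstimulated AhR-deficient BMDMs, while after LPS all AhR-deficient libraries lay below wildtype. The highest LPS-stimulated Fabp5 library of each genotype was again library 38 and library 31, those of the highest dendritic and Langerhans cell marker sums, while the lowest Fabp5 was in library 29, of the lowest sum (594 CPM), in wildtype and in library 32, of the second highest sum (375 CPM), in AhR-deficient BMDMs. The part of these cells was not tested. The log2 fold change was 0.87 without stimulation (standard error 0.29, adjusted p = 0.086) and −2.29 after LPS (standard error 0.30, adjusted p = 1.04e-05), 4.90-fold lower, with an interaction of −3.16 (standard error 0.42, adjusted p = 7.55e-05). The difference without stimulation passed the threshold in 7 of 34 alternatives, DESeq2 and the length slope as a covariate among them and library 29, 33, 37 or 38 left out, with adjusted p between 0.011 and 0.21 over all.

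Acsl3, an acyl-CoA synthetase of lipid droplets that overlaps Utp14b on the same strand, had 27.6 to 30.9 CPM (median 29.2) in unstimulated wildtype and 28.3 to 42.4 CPM (median 37.5) in unstimulated AhR-deficient BMDMs. With LPS the values were 11.4 to 18.4 CPM (median 14.1) and 5.94 to 11.4 CPM (median 9.35), and the groups met at their edges. It fell by 0.64 on the log2 scale after LPS (standard error 0.15, adjusted p = 0.0045, or 0.068 with only the 12 libraries compared), and the interaction was −0.95 (standard error 0.21, adjusted p = 0.0082). Acsl5, the acyl-CoA synthetase of the outer mitochondrial membrane and endoplasmic reticulum, had 248.7 to 459 CPM (median 351.5) in unstimulated wildtype and 209.0 to 295.0 CPM (median 231) in unstimulated AhR-deficient BMDMs, with overlap. In the LPS-stimulated groups there were 312 to 392 CPM (median 344) and 288 to 470.1 CPM (median 420.2). Its fall of 0.54 without stimulation (standard error 0.15, adjusted p = 0.036) was lost in 10 of 34 alternatives, among them each of libraries 17, 18, 19, 20, 27, 28, 34 and 36 left out, with adjusted p up to 0.12. The interaction of Acsl5 was positive, at 0.73 (standard error 0.22, adjusted p = 0.062), and passed the threshold in 9 of 33 alternatives, among them DESeq2, run as a factor and library 25, 31, 33 or 35 left out. Acsl1, Slc27a1 and Slc27a4 gave no call for genotype, with log2 fold changes between −0.16 and 0.27 over both states.

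In storage and lipolysis, 1 member rose and 1 fell with genotype, the same 2 genes in both states (28.6% of 7 in each, against 6.12% and 12.6% of all genes), and no interaction was called by edgeR, DESeq2 or limma-voom, with 1 of 7 at an unadjusted p under 0.05 in each. With run as a factor or the length slope as a covariate 1 was called, that of Dgat2. For genotype, the length slope as a covariate gave 4 rising and 1 falling without stimulation, where 17.1% of all genes were called. After LPS it gave 3 rising and 2 falling, where 35.3% were called. Dgat2, which adds the last fatty acid to triglyceride (chromosome 7, 99153658 to 99182719), had 31.6 to 101.3 CPM (median 41.6) in unstimulated wildtype and 6.82 to 12.9 CPM (median 10.8) in unstimulated AhR-deficient BMDMs. LPS-stimulated BMDMs had 245.7 to 519 CPM (median 299.9) in wildtype and 98.4 to 215.0 CPM (median 129.2) in AhR-deficient BMDMs. The genotypes overlapped in neither state. The log2 fold changes were −2.32 (standard error 0.28, adjusted p = 5.25e-06) and −1.19 (standard error 0.27, adjusted p = 0.0032), called in all 34 alternatives each. In wildtype the highest Dgat2 of each state was in library 33 and library 37. These also had the highest sums of neutrophil markers, 11960 and 8049 CPM, and the lowest length slopes of their groups, 0.17 and 0.27. The part of these cells and that of the slope were not tested. Plin3, a lipid droplet coat protein, rose by a log2 fold change of 0.64 without stimulation (standard error 0.17, adjusted p = 0.018) and 0.52 after LPS (standard error 0.17, adjusted p = 0.041). It had 52.9 to 108.5 CPM (median 106.0) in unstimulated wildtype and 115.1 to 167.3 CPM (median 156.7) in AhR-deficient BMDMs, without overlap, and 64.6 to 104.9 CPM (median 91.5) and 101.4 to 158.4 CPM (median 126.6) after LPS, with overlap. The call after LPS was lost in 14 of 34 alternatives, and 11 of these left out a single library (18, 21, 23, 24, 28, 29, 31, 32, 34, 37 or 38), with adjusted p up to 0.43 over all alternatives. With total library size, or with only the 12 libraries compared, it was lost in both states.

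Dgat1, the other enzyme of that step, was not called, with log2 fold changes of −0.33 without stimulation and −0.85 after LPS (standard error 0.30, adjusted p = 0.071). It passed the threshold after LPS in 6 of 34 alternatives, among them total library size, run as a factor and the length slope as a covariate. Leaving out library 33 was another of the 6, and this library stood at 124.6 CPM among unstimulated wildtype libraries that otherwise had at most 45.8 CPM. Lpl, the secreted lipoprotein lipase, had 154.1 to 1282 CPM (median 947) in unstimulated wildtype and 361 to 2622 CPM (median 2110) in unstimulated AhR-deficient BMDMs. After LPS it had 266 to 1682 CPM (median 1151) and 639 to 3813 CPM (median 2971). The medians of AhR-deficient BMDMs were higher in both states, but the ranges overlapped and the log2 fold changes of 0.95 and 1.30 had standard errors of 0.55, with adjusted p = 0.53 and 0.15. The difference after LPS passed the threshold when run was a factor or the length slope a covariate, where the adjusted p was as low as 4.92e-06. Mgll, the monoacylglycerol lipase, had a log2 fold change of 1.01 without stimulation (standard error 0.35, adjusted p = 0.099). It passed the threshold with DESeq2, with run as a factor, with the length slope as a covariate and without library 19, with adjusted p between 1.15e-05 and 0.25 over all alternatives. Plin2 and Pnpla2, the triglyceride lipase of droplets, had log2 fold changes between −0.01 and 0.24.

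In oxidation, 1 of 12 members changed with genotype without stimulation (8.33%, against 6.12% of all genes), none after LPS (against 12.6%) and none in the interaction (against 4.3%) by edgeR. DESeq2 and limma-voom also called none of the 12 after LPS or in the interaction. At an unadjusted p under 0.05, each of the 3 tools had 1 of the 12 after LPS and 0 in the interaction. With the length slope as a covariate, 2 rose and 1 fell without stimulation, 2 rose and 2 fell after LPS, and 3 were called in the interaction, of which 1 was positive, where 17.1%, 35.3% and 17.3% of all genes were called. After LPS 1 fell with run as a factor and 2 with total library size. Acaa2, the thiolase of the last step of β-oxidation, had 81.2 to 95.1 CPM (median 90.0) in unstimulated wildtype and 102.7 to 126.8 CPM (median 112.6) in AhR-deficient BMDMs, without overlap. The call (log2 fold change 0.36, standard error 0.11, adjusted p = 0.039) was lost in 10 of 34 alternatives, among them each of libraries 17, 18, 19, 20, 26, 34 and 35 left out, with adjusted p up to 0.17. The other 11 had log2 fold changes between −0.38 and 0.52 without stimulation, and all 12 between −0.53 and 0.36 after LPS. The lower end after LPS was Slc25a20, the carrier of acylcarnitines across the inner mitochondrial membrane, with 55.3 to 144.1 CPM (median 89.4) in wildtype and 52.8 to 85.1 CPM (median 59.7) in AhR-deficient BMDMs and an adjusted p of 0.11. For Cpt1a, the gate of carnitine-bound entry into mitochondria, and Hadha, a subunit of the trifunctional protein, the standard errors were 0.47 and 0.49, and the log2 fold changes of 0.52 and 0.38 without stimulation and 0.31 and 0.36 after LPS were not called. For Acadm, the medium-chain acyl-CoA dehydrogenase, the values were −0.03 and −0.01 with standard errors of 0.10.

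LPS moved 17 of 39 tested members in wildtype (43.6%, against 38% of all genes) and 22 in AhR-deficient BMDMs (56.4%, against 44.6%). In wildtype 6 rose and 11 fell, where 19.7% of all genes rose and 18.3% fell, and in AhR-deficient BMDMs 6 rose and 16 fell, where 22.1% rose and 22.6% fell. The libraries of the states did not overlap for 11 and 16 members, against 22.4% and 28.5% of all genes. With total library size, which shifted the median of all genes by −0.34 and −0.48, 4 rose and 17 fell, and 3 rose and 25 fell. There were 16 members called in both genotypes (41%, against 31.9% of all genes), of which 15 had the same sign (93.8%, against 99.2% of all genes called in both). The exception was Slc27a3, which rose by 2.85 on the log2 scale in wildtype (standard error 0.42, adjusted p = 6.83e-06) and fell by 1.5 in AhR-deficient BMDMs (standard error 0.40, adjusted p = 0.0035).

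**Figure D3:**
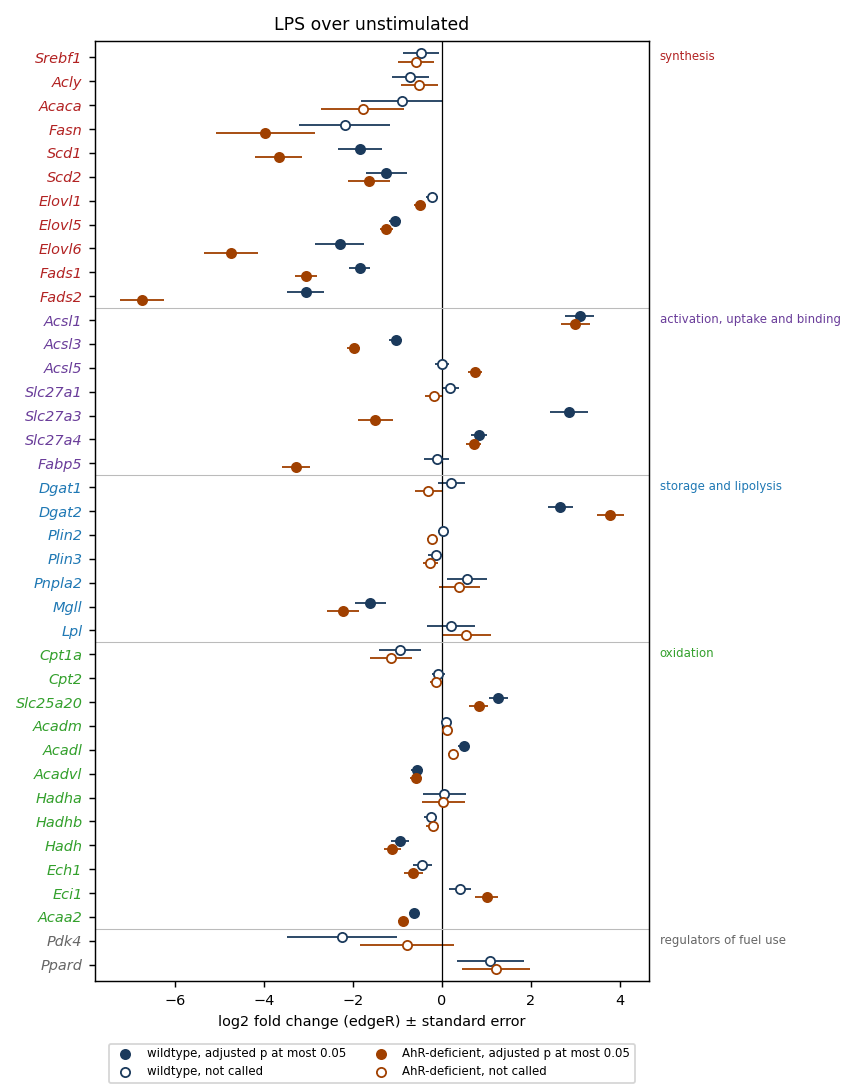
Log2 fold change of LPS-stimulated over unstimulated BMDMs for the 39 tested members, ordered by role, with bars for the standard error (n = 6 libraries per group), wildtype in blue and AhR-deficient in brown, and filled points for an adjusted p of at most 0.05. All points of synthesis lie below 0 in both genotypes, down to −6.74 for Fads2 in AhR-deficient BMDMs, and those of oxidation lie between −1.15 and 1.26.

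None of the 11 tested synthesis members rose with LPS. Of these, 6 fell in wildtype and 8 in AhR-deficient BMDMs, where 18.3% and 22.6% of all genes fell. With run as a factor 8 and 10 fell, and 11 fell in each genotype once the length slope was a covariate. Without these terms, the median log2 fold changes of the 11 were −1.25 and −1.79 where all genes had 0.03 and −0.03. Fads2 had log2 fold changes of −3.07 in wildtype (standard error 0.41, adjusted p = 2.29e-06) and −6.74 in AhR-deficient BMDMs (standard error 0.50, adjusted p = 9.82e-11), which are 8.39-fold and 107-fold lower. For Elovl6 they were −2.31 (standard error 0.54, adjusted p = 0.0015) and −4.75 (standard error 0.61, adjusted p = 7.49e-07), and for Fads1 −1.85 and −3.06. Scd1 had −1.84 and −3.67, and this difference between genotypes was not called (interaction −1.83, standard error 0.68, adjusted p = 0.16). The other desaturase of this kind, Scd2, had −1.25 in wildtype (adjusted p = 0.035, lost without library 18, 21, 22, 25, 26, 34, 37 or 38) and −1.65 in AhR-deficient BMDMs. Fasn fell by 3.98 in AhR-deficient BMDMs (standard error 1.11, adjusted p = 0.0051), and in wildtype its log2 fold change of −2.19 (standard error 1.03) had an adjusted p of 0.10. Elovl5 fell in both genotypes, at −1.05 and −1.25, and Elovl1 in AhR-deficient BMDMs, at −0.50, with −0.23 in wildtype not called. Srebf1, Acly and Acaca, at −0.47 to −1.79, were not called, except under alternatives. Run as a factor and the length slope as a covariate were among these. In AhR-deficient BMDMs, total library size was another, with 9 of the 11 synthesis members falling. Leaving out both libraries of the lowest length slope also gave 9 falling there.

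Activation and storage held the largest increases with LPS. Acsl1, the acyl-CoA synthetase best known from LPS-activated macrophages, went from 42.3 to 128.0 CPM (median 72.3) to 342 to 985 CPM (median 689) in wildtype, and from 29.6 to 131.8 CPM (median 91.0) to 417 to 849 CPM (median 714) in AhR-deficient BMDMs. The states did not overlap, with log2 fold changes of 3.10 (standard error 0.33, adjusted p = 6.52e-08) and 2.99 (standard error 0.33, adjusted p = 6.37e-08) and an interaction of −0.11 (standard error 0.43). Dgat2 rose by 2.66 in wildtype (standard error 0.28, adjusted p = 5.86e-08) and 3.79 in AhR-deficient BMDMs (standard error 0.30, adjusted p = 2.5e-10), and the interaction of 1.12 (standard error 0.37) had an adjusted p of 0.10. This interaction passed the threshold with run as a factor, with the length slope as a covariate and without library 37. Slc27a4, another fatty acid transport protein, rose by 0.84 and 0.71, calls that were lost with total library size. Fabp5 had a log2 fold change of −0.12 in wildtype (adjusted p = 0.78) and fell by 3.29 in AhR-deficient BMDMs (standard error 0.32, adjusted p = 8.06e-09). Acsl3 fell in both genotypes, at −1.04 and −1.99, and so did Mgll, at −1.61 and −2.23. Acsl5 had a log2 fold change of 0.01 in wildtype and rose by 0.73 in AhR-deficient BMDMs, a call lost with total library size.

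Oxidation genes moved in both directions. In wildtype 2 of 12 rose and 3 fell (41.7%, against 38% of all genes), and in AhR-deficient BMDMs 2 rose and 4 fell (50%, against 44.6%), shares near those of all genes. Total library size gave 1 rising and 7 falling in wildtype and 1 and 8 in AhR-deficient BMDMs, and the length slope as a covariate gave 3 rising and 6 falling in each. Slc25a20 rose by 1.26 in wildtype (standard error 0.21, adjusted p = 4.26e-05) and 0.83 in AhR-deficient BMDMs (standard error 0.21, adjusted p = 0.0025), the latter lost with total library size. Acadl, the long-chain acyl-CoA dehydrogenase, rose by 0.49 in wildtype, a call that total library size also ended, and Eci1 rose by 1.0 in AhR-deficient BMDMs. Hadh, which oxidises the hydroxyacyl intermediate, fell in both genotypes, at −0.94 and −1.12. Acaa2 did so at −0.64 and −0.88, and Acadvl, the very long-chain dehydrogenase, at −0.56 and −0.59. Ech1, an isomerase of unsaturated chains, fell by 0.65 in AhR-deficient BMDMs (adjusted p = 0.015, lost without library 19, at 0.058). Cpt1a, at −0.94 and −1.15, was not called, with adjusted p = 0.13 and 0.054.

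Of the regulators of fuel use, Ppard, the PPAR of most tissues, had 1.11 to 13.2 CPM over the unstimulated and 2.14 to 41.2 CPM over the LPS-stimulated libraries and was called in no comparison, except with the length slope as a covariate, where it rose for genotype after LPS and for LPS in AhR-deficient BMDMs. Pdk4, a kinase that limits the oxidation of pyruvate, had standard errors of 1.03 or more and was not called. It fell with LPS in wildtype when run was a factor or library 38 was left out, and in AhR-deficient BMDMs without library 40.

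**Figure D4:**
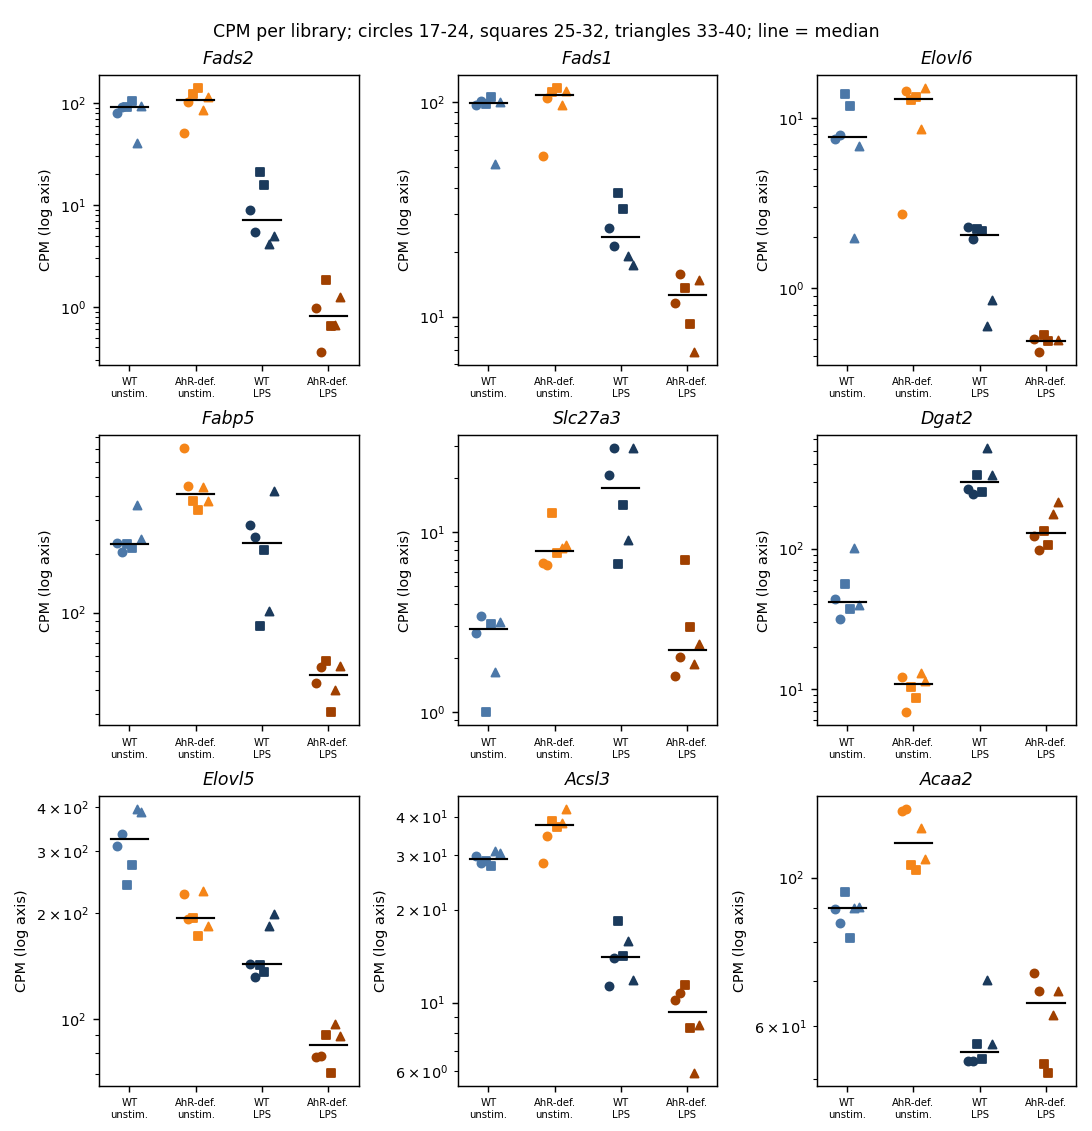
CPM per library (log axis) of 9 members in the 4 groups of 6 libraries, WT for wildtype and AhR-def. for AhR-deficient, with circles, squares and triangles for the 3 runs of library numbers and a line at the median. Fads2, Fads1 and Fabp5 separate the genotypes after LPS only, Dgat2 and Elovl5 separate them in both states, and Slc27a3 changes order. Library 39 is not drawn for Elovl6, which had no count there.

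The wider pathway was read from 109 other genes of the same roles, of which 92 were tested. Without stimulation 5 rose and 5 fell with genotype, after LPS 7 rose and 11 fell, and 9 were called in the interaction, of which 2 were positive. These were 10.9%, 19.6% and 9.78% of those tested, against 6.12%, 12.6% and 4.3% of all genes. Cd36, the scavenger receptor that takes up fatty acids and oxidised lipoproteins, had the largest increase among the genes of these lists that passed the test in both states, with log2 fold changes of 2.02 (standard error 0.29, adjusted p = 4.04e-05) and 2.36 (standard error 0.29, adjusted p = 4.06e-06). It had 22.9 to 91.6 CPM (median 60.2) in unstimulated wildtype against 201.8 to 293 CPM (median 236), and 101.0 to 296.7 CPM (median 241.0) against 677 to 1581 CPM (median 1144) after LPS, with no overlap. Acss2, which makes acetyl-CoA from acetate, rose by 1.58 without stimulation, and Ehhadh, a peroxisomal oxidation enzyme, by 0.75. Hilpda, an inhibitor of triglyceride lipolysis, and Gpat3, which starts glycerolipid synthesis, rose by 1.56 and 1.25 after LPS.

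On the other side, Mogat2, a monoacylglycerol acyltransferase, fell in both states, at log2 fold changes of −2.91 and −2.47, and so did G0s2, an inhibitor of the lipase Pnpla2, at −2.58 and −2.80. Fads3, of the same desaturase family as Fads1 and Fads2, fell by 2.46 without stimulation, with 21.5 to 68.4 CPM (median 47.7) in wildtype against 5.75 to 13.1 CPM (median 8.33). Acot2, a mitochondrial acyl-CoA thioesterase, fell by 2.5 after LPS. Of 22 tested other genes of synthesis, 2 rose and 12 fell with LPS in wildtype (63.6%, against 38% of all genes) and 3 rose and 12 fell in AhR-deficient BMDMs (68.2%, against 44.6%). Of 27 tested other genes of oxidation, 1 rose and 7 fell in wildtype (29.6%) and 1 rose and 15 fell in AhR-deficient BMDMs (59.3%). For genotype after LPS, 2 of the 22 rose and 3 fell (22.7%, against 12.6% of all genes), and 1 of the 27 rose and 4 fell (18.5%), where none of the 12 oxidation members was called.

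Summed over the members of a role, as a description without a test, the level of synthesis was 1660 ± 341 CPM (SD, n = 6) in unstimulated wildtype and 2167 ± 712 CPM (SD, n = 6) in unstimulated AhR-deficient BMDMs, and 775 ± 326 and 820 ± 402 CPM (SD, n = 6 each) after LPS. Scd2 had the highest mean CPM of its members in all 4 groups. The level of oxidation was 777 ± 25.2, 895 ± 36.9, 732 ± 35.4 and 733 ± 34.4 CPM (SD, n = 6 each) in the same order. The sum of synthesis therefore overlapped between genotypes in both states, although 4 of its members fell after LPS. That of oxidation ran from 751 to 815 CPM in unstimulated wildtype and from 857 to 952 CPM in unstimulated AhR-deficient BMDMs. The level of synthesis over oxidation was 1.37 to 2.49 without LPS and 0.58 to 1.84 after it in wildtype, and 1.21 to 3.41 and 0.58 to 1.87 in AhR-deficient BMDMs, and its lowest unstimulated values came from libraries 33 and 19.

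**Figure D5:**
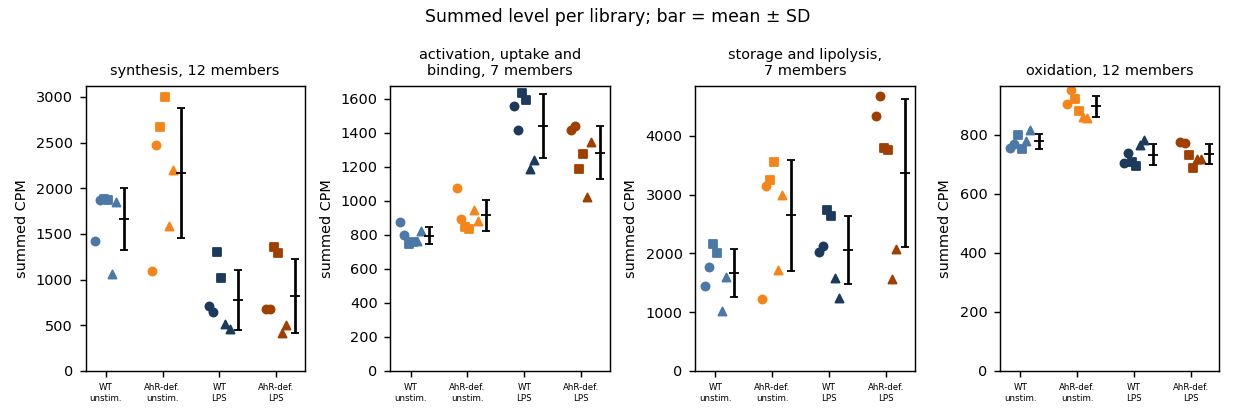
Summed CPM per library (axis from 0) of the members of synthesis, of activation, uptake and binding, of storage and lipolysis, and of oxidation, in the 4 groups of 6 libraries, WT for wildtype and AhR-def. for AhR-deficient, with mean and SD beside the points and symbols for the 3 runs of library numbers. Synthesis is lower after LPS in both genotypes, from 1660 to 775 CPM in wildtype and from 2167 to 820 CPM in AhR-deficient BMDMs, and oxidation lies between 687 and 952 CPM in every library.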

How the data were processed

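Poly(A) RNA of the BMDMs was made into strand-marked libraries and sequenced by the authors. Reads were aligned by the authors with GSNAP (mm10), and featureCounts 2.0.1 counted fragments with 1 alignment on the reverse strand, per gene of Ensembl release 98. What was deposited are raw counts with merged-exon lengths, and 92 spike-in sequences (1 count in all) were left out. Depth was 45106052 to 76992663 counts per library, and the biological coefficient of variation was 49.1%. Floors of 3 counts cover counting error only.

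The 24 libraries entered 1 edgeR 4.0.16 fit (R 4.3.3) by group, with TMM, filterByExpr and the robust quasi-likelihood F-test. It gave the genotype effect in each state, the LPS effect in each genotype and their interaction, adjusted by Benjamini-Hochberg over 16593 genes. The fit was also run on simulated counts. These held no differences in length slope and none between runs, so they cannot show how the test behaves under either. Mean log2(CPM + 0.5) was compared within runs. Alternatives were DESeq2 size factors, total library size, DESeq2 1.42.0, limma-voom (limma 3.58.1), no filter, a minimum mean of 1 CPM, a fit of the 12 libraries of a comparison, the length slope or run as a term, and each library left out. Leaving out libraries 19 and 33 together was added after seeing the data.

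The members and lists were chosen with earlier results of these data known. Named were members called for genotype or interaction, the 3 largest LPS changes, and up to 3 other pathway genes per direction, while further members were named after their values were seen to account for the list. A planned comparison of the Scd1 and Scd2 proteins is not analysed here. Groups came from the sample labels. Nothing says whether libraries of different groups share animals, so p-values measure the spread between these libraries.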

Additional observations from a re-analysis of the deposited data

Results flagged for a closer look

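In groups of 6, a library stood apart by Dixon's test in 14 of the 150 groups of values looked at (9.33%), where chance gives about 1 in 20. In unstimulated wildtype, library 33 was lowest for Acly (84.9 CPM), Fads1 (51.4) and Plin3 (52.9) and highest for Fabp5 (357), Dgat1 (124.6) and Dgat2 (101.3). In unstimulated AhR-deficient BMDMs, library 19 was lowest for Fads1 (55.9 CPM) and Slc27a4 (45.0) and highest for Fabp5 (704), and library 27 was highest for Slc27a3 (12.8). After LPS, library 37 of wildtype was highest for Dgat2 (519 CPM), Hadhb (21.98) and Acaa2 (70.1), and library 31 of AhR-deficient BMDMs was highest for Slc27a3 (6.98). Libraries 19 and 33 had the lowest slopes on gene length, and their part in these values was not tested.

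The genotype effect differed between the unstimulated and the LPS-stimulated state by edgeR's interaction test, with log2 values of −4.35 for Slc27a3, −3.67 for Fads2, −3.16 for Fabp5, −1.20 for Fads1 and −0.95 for Acsl3.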

How the results depend on the processing

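Of 59 calls of a member in a comparison, 45 were called in every alternative run for them (at most 34), 14 were lost in at least 1 and none changed sign. The number of members called was more than 1.5 times higher with the length slope as a covariate, at 13 for genotype without stimulation (9 rose, 4 fell), 19 after LPS (8 rose, 11 fell), 26 for LPS in wildtype and 13 for the interaction (4 positive, 9 negative), and with run as a factor the interaction gave 8. With that covariate 2844, 5861, 10213 and 2877 of all genes were called in the same order. With each library left out in turn, 4 to 7 members were called for genotype without stimulation, 8 to 10 after LPS, 16 to 18 for LPS in wildtype, 22 to 23 in AhR-deficient BMDMs and 4 to 7 for the interaction. Without both libraries 19 and 33, chosen after seeing the data, the counts were 5, 10, 19, 25 and 7. The cause of these changes was not tested. No paired analysis was made, because the labels do not say which libraries of different groups share an animal, if any do. Pdk4 and Acacb stayed under 1 CPM in every library, and values of Fasn and Acaca spread widely between libraries of a group.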
